A study of Mus musculus with 18 samples.

Results

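Il21, Angptl2, Slamf6, Sh2d1a and Tox2 are genes known from follicular T cells, and their levels were followed in mouse regulatory T (Treg) cells with more or less of the miR-23, miR-24 and miR-27 microRNAs. The 5 genes are 5 of the 23953 entries of the deposited expression table, whose unit is RPKM (read count divided by transcript length and by library size). They were chosen from values measured in these same 18 libraries, so their levels are given as a description with no test. Each of the 5 was found in the table and passed the filter on low values, at least 1 RPKM in at least 3 libraries, as did 11520 genes in all.

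Treg cells were sorted as CD4+CD25hi cells from C57BL/6 mice of 6 genotypes, with 3 libraries per genotype. The miR-23 Tg, miR-24 Tg, miR-27 Tg and cluster Tg mice overexpressed miR-23, miR-24, miR-27 or the whole miR-23 cluster in T cells. The DKO mice lacked the miR-23a and miR-23b clusters in T cells, and the WT mice were the controls. The labels spell these groups as DKO Tg and WT Tg, and the title of the series names CD4cre, a Cre recombinase active in all T cells of the CD4 and CD8 lineages and not only in Treg cells. Ages, the number of animals behind a library and whether replicates are separate animals are not stated in the sources used here, so p-values measure only the spread between these libraries. Levels of the mature microRNAs were not analysed here.

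IL-21 is the cytokine by which follicular helper T cells drive germinal centre B cells, and it signals through its receptor IL-21R with the common gamma chain, JAK kinases and STAT proteins. Follicular Treg cells are Treg cells that take up part of the follicular helper programme, enter the B cell follicle and restrain the germinal centre, and they are described as making little IL-21. SLAMF6 is a homotypic receptor of the SLAM family on lymphocytes, SAP (the product of Sh2d1a) is the adaptor that couples SLAM receptors to Fyn, and both act in the contact of T cells with B cells. TOX2 is an HMG box transcription factor of follicular helper cells, and ANGPTL2 is a secreted angiopoietin-like protein that binds integrins and leukocyte immunoglobulin-like receptors.

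The microRNAs that the genotypes change are shown first, because their seeds (bases 2 to 8 from the 5′ end, in capitals) set which transcripts can pair with them. The mature sequences are from RefSeq on GRCm38.p6.
miR-23a-3p: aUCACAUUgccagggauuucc
miR-24-3p: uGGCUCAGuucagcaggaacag
miR-27a-3p: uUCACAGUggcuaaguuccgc
miR-27b-3p: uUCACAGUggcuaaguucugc
The 2 miR-27 sequences share 1 seed, and miR-23 and miR-24 each have their own. The DNA letters of a 7-base seed match in a 3′ UTR are AATGTGA for miR-23, CTGAGCC for miR-24 and ACTGTGA for miR-27, searched on the transcribed strand only.

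Matches were looked for in the longest annotated 3′ UTR of each gene (GENCODE M21, GRCm38). Il21 had 1 match to miR-27 in 2578 bases of 3′ UTR. Slamf6 had 1 match to miR-23, 2 to miR-24 and 3 to miR-27 in 4480 bases. No match was found in the 3′ UTRs of Angptl2 (1431 bases), Sh2d1a (616 bases) or Tox2 (1390 bases). Among 10185 tested genes with a 3′ UTR of at least 50 bases, of median length 1153 bases, 16.5% held a miR-23 match, 19.1% a miR-24 match and 17.1% a miR-27 match. The 3′ UTRs of Slamf6, Il21, Angptl2 and Tox2 are all longer than that median, and that of Sh2d1a is shorter. The windows below show the Il21 match at chr3:37224998-37225026 and the Slamf6 matches for miR-23 at chr1:171949349-171949377 and for miR-27 at chr1:171950194-171950222, with the match in capitals, on the strand of the gene.
Il21, miR-27 match: cttattgcccaACTGTGAcattctttgat
Slamf6, miR-23 match: tgaataaagtaAATGTGAcctctgccctt
Slamf6, miR-27 match: cagtggatttcACTGTGAcagttccatga
The other Slamf6 matches to miR-27 lie at bases 2217 and 3960 of the UTR, and those to miR-24 at bases 2304 and 3830. A match is a run of letters and not a measured site. All 5 genes, with a match or without, were higher in miR-27 Tg than in WT (values below). They were chosen on these values, so nothing about the matches is read from that direction.

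Il21 lies on chromosome 3 at 37222759-37232636 on the minus strand. In WT it was at 2.57, 2.68 and 1.32 RPKM in replicates 1, 2 and 3, a mean of 2.19 ± 0.757 (SD, n = 3). It was the least expressed of the 5 genes, and its lowest library still corresponded to about 128 reads. In miR-23 Tg it was at 10.02, 10.22 and 6.11 RPKM. In miR-27 Tg it was at 8.30, 8.12 and 12.97 RPKM. In cluster Tg it was at 14.1, 9.78 and 5.42 RPKM. Every library of these 3 genotypes was above every WT library, and the spread within cluster Tg was the widest of any genotype for Il21 (9.77 ± 4.36 RPKM, n = 3).

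On the log2(RPKM + 0.5) scale, which understates changes of low genes, Il21 was 1.80 above WT in miR-23 Tg (SE 0.347, 3.48-fold), 1.95 in miR-27 Tg (SE 0.347, 3.86-fold) and 1.88 in cluster Tg (SE 0.347, 3.69-fold). These comparisons share the same WT libraries. In miR-23 Tg, Il21 ranked 97 of the 11520 tested genes by size of rise. In miR-24 Tg, Il21 was at 2.54, 5.48 and 4.77 RPKM, 0.81 above WT on the log2 scale (SE 0.347, 1.75-fold). Replicate 1 of miR-24 Tg fell within the WT range and replicates 2 and 3 lay above it.

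Il21 was also higher where the clusters were deleted. The DKO libraries were at 5.09, 6.47 and 4.38 RPKM, a mean of 5.31 ± 1.06 (n = 3), all above the highest WT library. The difference was 1.14 on the log2 scale (SE 0.347, 2.204-fold), and Il21 ranked 87 of 11520 genes by size of rise in DKO. Without each library in turn it lay between 0.88 and 1.28. Il21 was thus above WT both in genotypes that gained these microRNAs and in the genotype that lost them. In order of means the genotypes ran WT, miR-24 Tg, DKO, miR-23 Tg, cluster Tg and miR-27 Tg, and each neighbouring pair in that order had overlapping libraries.

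The Il21 promoter is printed because Il21 stood apart from WT in both directions of microRNA dose and because several of its transcriptional regulators are among the genes tested below. The 250 bases before its start (chr3:37232637-37232886, minus strand, RefSeq, GRCm38.p6) are shown 5′ to 3′ with matches on either strand to the NFAT core GGAAA (also read as TTTCC) and to the MAF half-site TGCTGA in capitals.
Il21 promoter: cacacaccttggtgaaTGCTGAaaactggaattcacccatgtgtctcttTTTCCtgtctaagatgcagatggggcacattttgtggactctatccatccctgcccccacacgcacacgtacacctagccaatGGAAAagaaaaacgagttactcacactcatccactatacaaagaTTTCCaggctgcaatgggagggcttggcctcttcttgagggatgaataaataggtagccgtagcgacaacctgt
It held 3 matches to the NFAT core and 1 to the MAF half-site, with no overlap between them. Of 32851 promoters of this length, 55.6% held at least 1 NFAT core and 16.1% a MAF half-site, so both are common letters. AP-1 (TGANTCA, in 6.75% of promoters) and STAT (TTCNNNGAA, in 7.02%) had no match in this window.

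**Figure D1:**
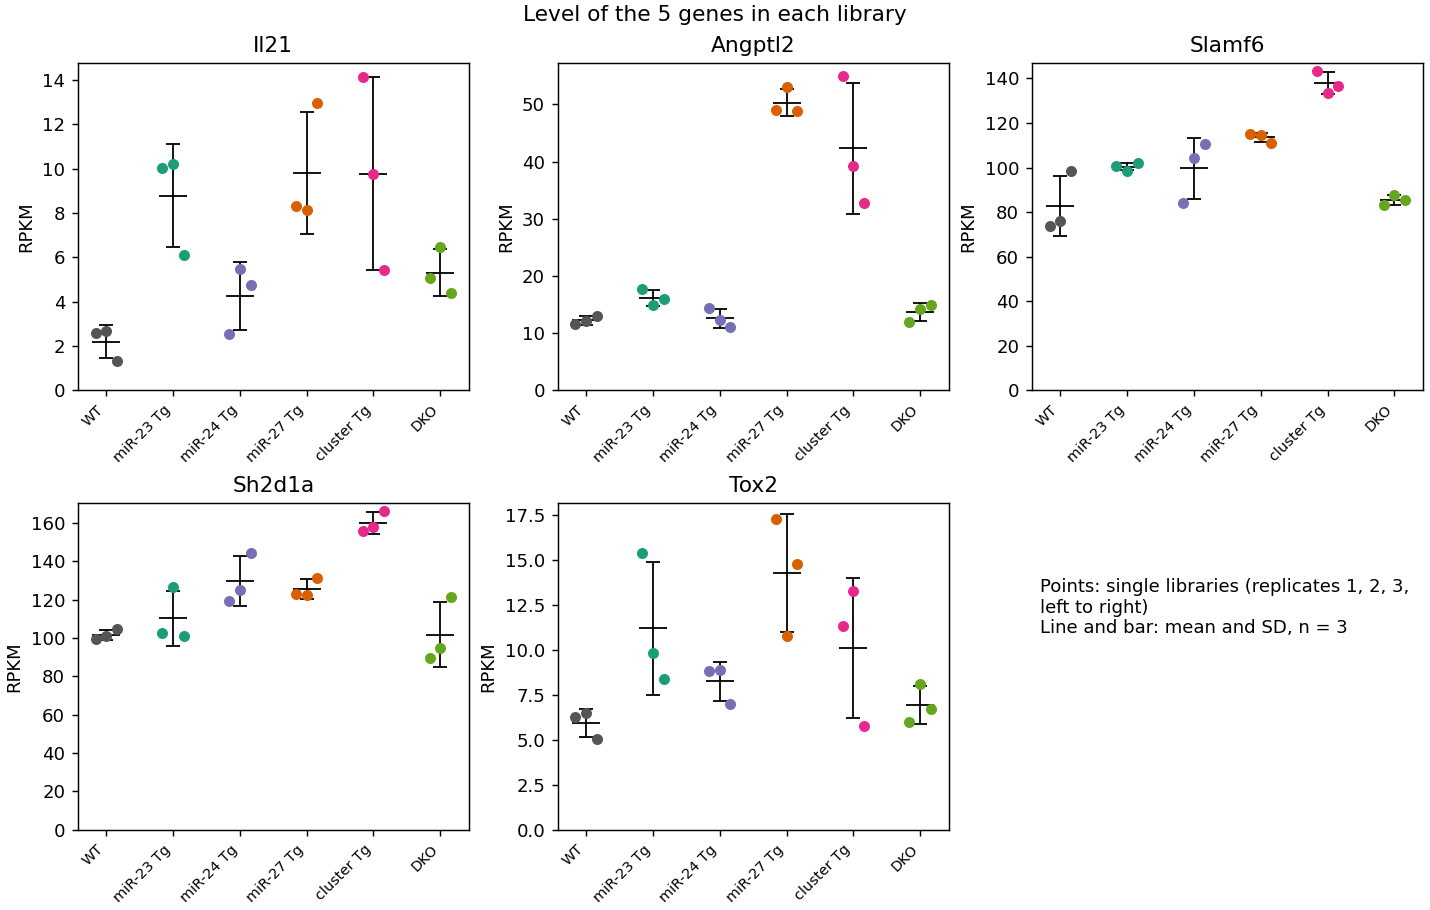
RPKM (y axis, from 0) of Il21, Angptl2, Slamf6, Sh2d1a and Tox2 in each of the 18 libraries, by genotype (x axis); points are libraries and the line with bar is the mean with SD, n = 3. Angptl2 is high in miR-27 Tg and cluster Tg only, Slamf6 and Sh2d1a are highest in cluster Tg, and all DKO libraries of Il21 lie above WT.

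Angptl2 separated the genotypes more sharply than Il21. It lies on chromosome 2 at 33216069-33247717 on the plus strand. The WT libraries were at 11.55, 12.03 and 12.99 RPKM (12.19 ± 0.730, n = 3). The miR-27 Tg libraries were at 49.0, 53.0 and 48.8 RPKM (50.27 ± 2.37, n = 3). The cluster Tg libraries were at 55.0, 39.2 and 32.8 RPKM. The highest library of any other genotype was at 17.7 RPKM, so these 2 genotypes stood apart from the rest.

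The difference of Angptl2 from WT was 2.001 on the log2 scale in miR-27 Tg (SE 0.150, 4.002-fold) and 1.72 in cluster Tg (SE 0.150, 3.30-fold). Without cluster Tg replicate 1, its highest library, the cluster Tg difference was 1.52. Cluster Tg and miR-27 Tg overlapped and differed by -0.28 (SE 0.150). In miR-23 Tg, Angptl2 was at 17.7, 14.9 and 15.9 RPKM, all above WT but by 0.39 only (SE 0.150, 1.31-fold). The miR-24 Tg libraries (14.38, 12.36 and 10.97 RPKM) and the DKO libraries (11.98, 14.21 and 14.82 RPKM) overlapped WT. In the direct comparison of miR-27 Tg with miR-23 Tg, Angptl2 was 1.61 higher (SE 0.150, 3.05-fold), against 0.15 for Il21 (SE 0.347).

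Angptl2 lies inside Ralgps1, which is on the opposite strand, and the RNA kit and counting are not stated to use strand, so reads of the pair cannot be told apart where they overlap. Ralgps1, a guanine nucleotide exchange factor, ran from 3.08 to 6.55 RPKM over the 18 libraries. It was at 5.23 ± 0.790 RPKM in WT and 3.63 ± 0.545 in cluster Tg (n = 3 each), the direction opposite to Angptl2, and was called lower there (log2 -0.47, limma adjusted p = 0.0475). That call ended without any library but cluster Tg replicate 2 (adjusted p 0.0633 to 0.174).

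Slamf6 lies on chromosome 1 at 171917515-171953170 on the plus strand, next to other SLAM family genes. It was already well expressed in WT, at 73.8, 75.9 and 98.5 RPKM, with replicate 3 apart from the others. In cluster Tg it was at 143.2, 133.6 and 136.7 RPKM, the highest of the 6 genotypes (137.8 ± 4.92, n = 3). The difference from WT was 0.75 on the log2 scale (SE 0.104, 1.68-fold), and 0.88 without WT replicate 3. In miR-27 Tg it was at 115.1, 114.5 and 111.2 RPKM, 0.47 above WT (SE 0.104, 1.38-fold). Every cluster Tg library was above every miR-27 Tg library, and every miR-27 Tg library above every WT library.

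The miR-23 Tg libraries of Slamf6 (100.8, 98.5 and 102.0 RPKM) lay narrowly above WT replicate 3, with a difference of 0.29 from the WT mean (SE 0.104). The miR-24 Tg libraries (84.3, 104.1 and 110.4 RPKM) and the DKO libraries (83.3, 87.6 and 85.3 RPKM) overlapped WT. Without WT replicate 3 the difference was 0.40 for the miR-24 Tg libraries and 0.42 for those of miR-23 Tg, beside 0.60 for miR-27 Tg and 0.19 for DKO.

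Sh2d1a, whose product SAP is bound by the SLAM receptors, lies on chromosome X at 42502453-42529330. Its level followed a gradation like that of Slamf6, with 1 exception in miR-24 Tg. The WT libraries were at 99.7, 100.9 and 104.6 RPKM. The cluster Tg libraries were at 155.8, 157.8 and 166.6 RPKM, 0.65 above WT on the log2 scale (SE 0.111, 1.57-fold). The miR-27 Tg libraries (122.9, 122.6 and 131.4 RPKM, difference 0.30, SE 0.111) and the miR-24 Tg libraries (119.6, 124.9 and 144.4 RPKM, difference 0.34, SE 0.111) were all above WT and overlapped each other.

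In miR-23 Tg (102.9, 126.8 and 101.3 RPKM) and DKO (89.5, 94.7 and 121.4 RPKM) Sh2d1a overlapped WT, with 1 high library in each. Cluster Tg was 0.35 above miR-27 Tg (SE 0.111) with no overlap, so Slamf6 and Sh2d1a were the members that were higher in cluster Tg than in miR-27 Tg. Sh2d1a is X-linked, and each genotype held libraries of both sexes by Y-linked genes (1 or 2 of 3 libraries). Across the 18 libraries the log2 levels of Slamf6 and Sh2d1a had a Pearson r of 0.817, given as a description over libraries that share genotypes. With genotype means removed it was 0.247.

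Tox2 lies on chromosome 2 at 163203125-163324170. It was at 6.25, 6.48 and 5.05 RPKM in WT. The miR-27 Tg libraries were the highest, at 17.3, 10.8 and 14.8 RPKM (14.28 ± 3.29, n = 3), 1.18 above WT on the log2 scale (SE 0.273, 2.27-fold). The miR-23 Tg libraries were at 15.4, 9.83 and 8.36 RPKM, 0.83 above WT (SE 0.273, 1.77-fold). The libraries of both genotypes were all above WT but spread widely.

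In cluster Tg, Tox2 was at 11.3, 13.3 and 5.76 RPKM, so that replicate 3 lay inside the WT range. The cluster Tg difference was 0.66 (SE 0.273) and 0.997 without that library. The miR-24 Tg libraries (8.86, 8.91 and 6.98 RPKM) were just above WT, with a difference of 0.45 (SE 0.273). The DKO libraries overlapped WT, with a difference of 0.21 (SE 0.273). Cluster Tg replicate 3 was also the lowest cluster Tg library for Il21 and Angptl2, and the highest for Sh2d1a. Il21 and Tox2 had the highest r within genotypes among the 10 pairs of members (0.569, and 0.774 over the 18 libraries).

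Read over the members, all 5 had libraries above and clear of WT in miR-27 Tg, beside 22.8% of all tested genes that were higher without overlap there. The count was 4 of 5 in miR-23 Tg beside 14.1%, 2 of 5 in miR-24 Tg beside 15.9%, 4 of 5 in cluster Tg beside 22.6% and 1 of 5 (Il21) in DKO beside 3.32%. Between overexpressing genotypes it was 2 of 5 for miR-27 Tg over miR-23 Tg (Angptl2 and Slamf6) beside 21.6%, and 2 of 5 for cluster Tg over miR-27 Tg (Slamf6 and Sh2d1a) beside 12.8%. No member was lower without overlap in any comparison. Since the members were chosen on these values, nothing is read from the counts.

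**Figure D2:**
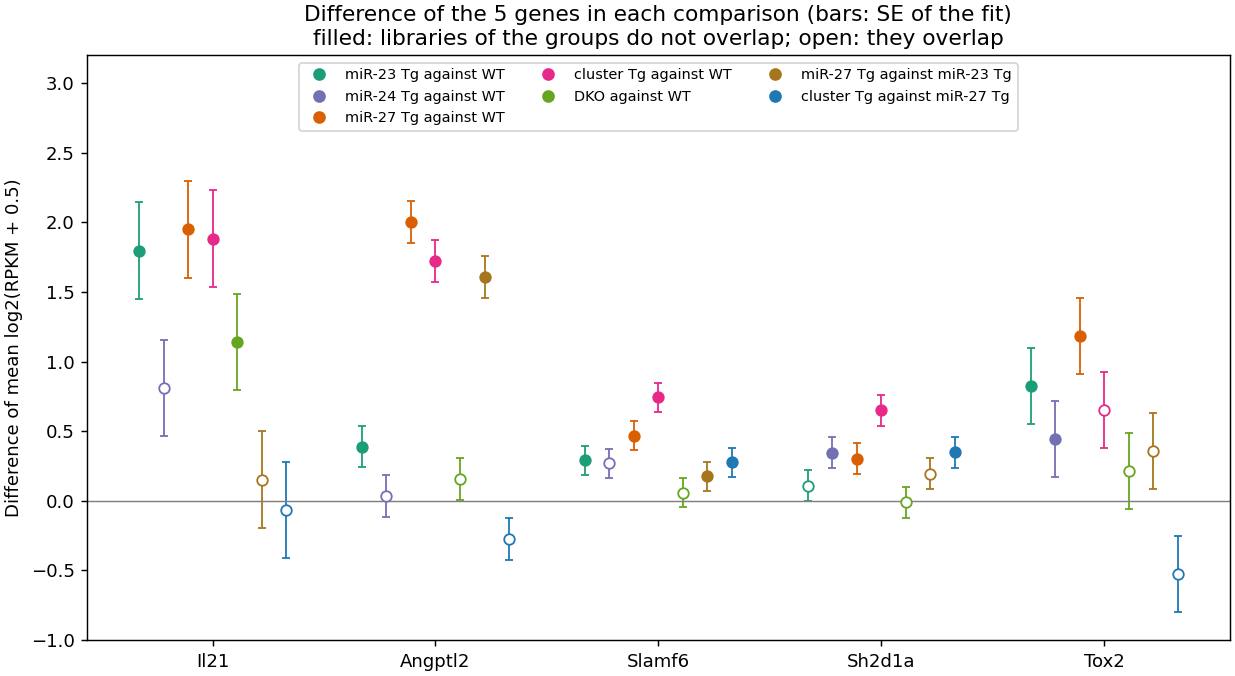
Difference of mean log2(RPKM + 0.5) (y axis) for each of the 5 genes (x axis) in the 7 comparisons, coloured by comparison; bars are SE of the fit and open points mark groups whose libraries overlap. Il21 is 1.80 to 1.95 above WT in miR-23 Tg, miR-27 Tg and cluster Tg, while Angptl2 is near 2 only in miR-27 Tg and at 1.72 in cluster Tg.

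The rest of the follicular helper programme was read with a list of 30 genes that holds no member. This list and those below were chosen with earlier results of these data known, so their counts are not an independent test. Of the 30 genes, 28 passed the filter. Ascl2, a transcription factor that starts the programme, and Cxcl13 did not (Ascl2 was at 0.195 ± 0.0704 RPKM in WT, n = 3). In miR-27 Tg against WT, 15 of 28 rose and 2 fell at limma's Benjamini-Hochberg adjusted p under 0.05, beside 15.9% and 12.7% of all tested genes, with a median log2 difference of 0.516 beside 0.005. In cluster Tg, 13 rose and 3 fell, beside 13.8% and 10.5%, with a median of 0.436 beside 0.016. In miR-24 Tg, 6 rose and 1 fell, beside 4.60% and 4.38%, with a median of 0.191 beside 0.011.

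In miR-23 Tg, where Il21 and Tox2 were higher too, none of the 28 passed (8 had an unadjusted p under 0.05), beside 0.156% of genes called higher and 0.200% called lower, with a median of 0.190 beside 0.008. In DKO, where Il21 was higher, none passed with limma either (5 had an unadjusted p under 0.05). All of DKO against WT held 2 genes called higher (0.0174%) and 0 called lower (0%), with 254 at an unadjusted p under 0.05, and the median of the list was -0.03 beside -0.004.

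The receptors and factors that lead the list in miR-27 Tg were Maf, a transcription factor of IL-21 production, Il1rn, the decoy ligand of the IL-1 receptor, Irf4, a factor of activated lymphocytes, and Icos, the costimulatory receptor of follicular cells. Maf was at 134.7 ± 2.40 RPKM in miR-27 Tg and 45.7 ± 2.01 in WT (log2 1.55, adjusted p = 1.09e-05). Il1rn was at 4.57 ± 0.913 and 0.627 ± 0.194 RPKM (log2 2.17, adjusted p = 1.30e-05). Irf4 was at 62.3 ± 3.22 and 38.0 ± 2.22 RPKM (log2 0.71, adjusted p = 2.34e-05). Icos was at 176.8 ± 23.6 and 88.9 ± 4.15 RPKM (log2 0.98, adjusted p = 3.99e-05). Pdcd1, the PD-1 receptor, was at 67.8 ± 10.9 and 39.8 ± 6.06 RPKM (log2 0.76, adjusted p = 0.00153). Each has n = 3 per group, and none of these calls ended when a library was left out.

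The genes that fell in miR-27 Tg were Lef1, a factor that with TCF-1 opens the follicular programme, and Il6st, the signalling chain of the IL-6 receptor. Lef1 was at 56.96 ± 5.93 RPKM against 80.8 ± 15.5 in WT (log2 -0.49, adjusted p = 0.00646, or 0.0617 with only the 2 groups in the fit). Il6st was at 44.9 ± 4.26 against 66.5 ± 1.23 RPKM (log2 -0.57, adjusted p = 0.0297), a call that ended without miR-27 Tg replicate 2 or 3 or any WT library (adjusted p 0.0607 to 0.109).

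In cluster Tg the list was led by Il1r2, the decoy IL-1 receptor, Gpm6b, a membrane glycoprotein, Icos and Batf, an AP-1 family factor. Il1r2 was at 120.9 ± 25.7 RPKM against 28.3 ± 5.91 in WT (log2 2.08, adjusted p = 9.98e-06). Gpm6b was at 42.35 ± 11.99 against 8.98 ± 1.91 RPKM (log2 2.16, adjusted p = 2.68e-05). Icos was at 177.8 ± 11.8 RPKM (log2 0.99, adjusted p = 4.60e-05). Batf was at 192.1 ± 27.8 against 95.6 ± 10.9 RPKM (log2 0.999, adjusted p = 0.000143). Maf (82.5 ± 10.5 RPKM, log2 0.84, adjusted p = 0.000811) and Pdcd1 (79.7 ± 11.1 RPKM, log2 0.99, adjusted p = 0.000349) rose as well.

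Lef1 fell in cluster Tg to 57.2 ± 1.93 RPKM (log2 -0.48, adjusted p = 0.00883, or 0.0532 with only the 2 groups in the fit). Il6st fell to 41.3 ± 12.1 RPKM (log2 -0.72, adjusted p = 0.01, or 0.0520 without cluster Tg replicate 1). Il6ra, the ligand-binding chain of the IL-6 receptor, fell to 53.1 ± 11.4 from 76.7 ± 7.79 RPKM (log2 -0.54, adjusted p = 0.0235). The Il6ra call ended without cluster Tg replicate 1 or WT replicate 3 (adjusted p 0.0881 to 0.126).

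In miR-24 Tg, Icos (164.8 ± 5.30 RPKM, log2 0.89, adjusted p = 0.000296), Maf (87.5 ± 17.9 RPKM, log2 0.91, adjusted p = 0.00132), Pdcd1 (70.6 ± 5.05 RPKM, log2 0.83, adjusted p = 0.00303) and Gpm6b (19.7 ± 4.74 RPKM, log2 1.08, adjusted p = 0.00612) led the rises. Tcf7, which encodes TCF-1, fell to 181.6 ± 19.8 from 279.4 ± 9.74 RPKM (log2 -0.63, adjusted p = 0.00482). Thus Icos, Maf, Pdcd1 and Gpm6b rose in miR-24 Tg, where Angptl2 was at 1.02-fold of WT.

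The factor and the homing receptor that define follicular T cells did not pass in any of the 7 comparisons. Bcl6, the repressor that specifies the lineage, was at 11.8 ± 0.722 RPKM in WT, 14.7 ± 2.41 in miR-27 Tg (log2 0.29, adjusted p = 0.265), 14.9 ± 4.06 in cluster Tg (log2 0.29, adjusted p = 0.274) and 10.4 ± 1.18 in DKO (log2 -0.17, adjusted p = 1). Cxcr5, the receptor for the follicle chemokine CXCL13, was at 24.7 ± 2.93 RPKM in WT, 26.3 ± 3.25 in miR-27 Tg (log2 0.09, adjusted p = 0.718), 29.5 ± 2.43 in cluster Tg (log2 0.25, adjusted p = 0.254) and 19.5 ± 2.65 in DKO (log2 -0.34, adjusted p = 1). Tox, the relative of Tox2, was at 40.1 ± 3.82 RPKM in WT and 57.7 ± 12.9 in cluster Tg (log2 0.50, adjusted p = 0.0533), with overlapping libraries. Of the 3 other TOX family genes 2 were tested, and neither passed in any of the 7 comparisons with limma (at most 1 had an unadjusted p under 0.05).

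**Figure D3:**
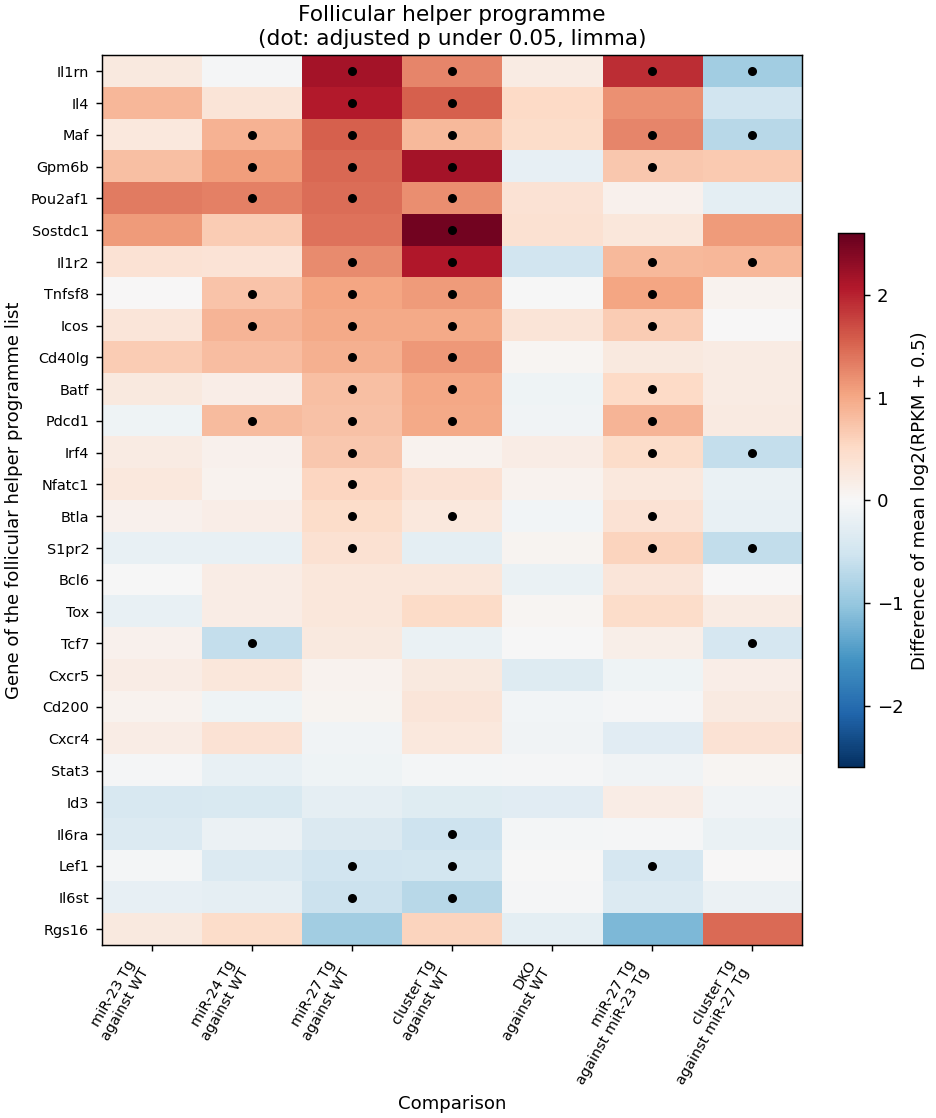
Difference of mean log2(RPKM + 0.5) (colour) of the 28 tested genes of the follicular helper programme list (rows, ordered by the miR-27 Tg difference) in the 7 comparisons (columns); dots mark an adjusted p under 0.05 in limma. There are 15 rises in miR-27 Tg, 13 in cluster Tg and 6 in miR-24 Tg, and no dot in the columns of miR-23 Tg and DKO against WT. The list was chosen with earlier results of these data known.

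The 2 direct comparisons do not involve WT. In miR-27 Tg against miR-23 Tg, 11 of 28 genes rose and 1 fell, beside 12.4% and 10.9% of all tested genes, with a median of 0.305 beside 0.008. Il1rn (log2 1.91, adjusted p = 2.96e-05), Maf (log2 1.27, adjusted p = 4.59e-05), Irf4 (log2 0.49, adjusted p = 0.000372) and Icos (log2 0.66, adjusted p = 0.000765) led the rises. Lef1 fell (log2 -0.44, adjusted p = 0.0151), a call that ended without miR-23 Tg replicate 2 or miR-27 Tg replicate 1 (adjusted p 0.0516 to 0.0550). Il21 itself was at 9.80 ± 2.75 RPKM in miR-27 Tg and 8.78 ± 2.32 in miR-23 Tg (n = 3 each), a difference of 0.15 within the spread of the libraries.

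In cluster Tg against miR-27 Tg, 1 gene of the list rose and 5 fell, beside 3.50% and 3.35%. Il1r2 rose (120.9 ± 25.7 against 65.91 ± 7.001 RPKM, log2 0.85, adjusted p = 0.0128, or 0.0570 to 0.0608 without cluster Tg replicate 1 or miR-27 Tg replicate 2). Irf4 (log2 -0.62, adjusted p = 0.000404), S1pr2, a sphingosine receptor that holds cells in the germinal centre (log2 -0.63, adjusted p = 0.00801), Maf (log2 -0.71, adjusted p = 0.00894) and Il1rn (log2 -0.90, adjusted p = 0.0160) were lower in cluster Tg. The Il1rn call ended without cluster Tg replicate 2 or miR-27 Tg replicate 2 or 3 (adjusted p 0.0536 to 0.0702). Tcf7 (log2 -0.43, adjusted p = 0.0404) lost its call on leaving out any of the 6 libraries (adjusted p up to 0.122). With only these 2 groups in the fit none of the 6 passed (adjusted p 0.0731 to 0.208). That fit called 5 of 11014 genes higher and 4 lower, against 403 and 386 with all groups in the fit. Maf and Irf4 were therefore highest in miR-27 Tg, whereas Slamf6 and Sh2d1a were highest in cluster Tg.

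Genes that oppose the follicular state, a list of 14 that all passed the filter, had calls in both directions. In miR-27 Tg, 3 rose and 5 fell, beside 15.9% and 12.7% of all tested genes, with a median log2 difference of -0.24 beside 0.005. Ccr7, the receptor that keeps T cells in the T cell zone, fell from 173.7 ± 5.47 to 98.5 ± 8.76 RPKM (log2 -0.82, adjusted p = 0.000429), and Foxp1, a factor that restrains follicular helper cells, fell from 42.2 ± 1.47 to 27.6 ± 0.929 RPKM (log2 -0.60, adjusted p = 0.000507). Selplg, the selectin ligand PSGL-1 that follicular helper cells lose, fell from 241.5 ± 11.6 to 181.3 ± 19.9 RPKM (log2 -0.42, adjusted p = 0.00653). Foxo1, a forkhead factor of resting T cells, fell from 74.3 ± 2.96 to 58.9 ± 2.01 RPKM (log2 -0.33, adjusted p = 0.0180), a call that ended without WT replicate 1 or miR-27 Tg replicate 3 (adjusted p 0.0643 to 0.0668).

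Gpr183, the receptor EBI2 for oxysterols at the follicle border, rose in miR-27 Tg from 20.3 ± 4.26 to 40.4 ± 5.33 RPKM (log2 0.98, adjusted p = 0.000182), and Id2, an inhibitor of E proteins, from 48.3 ± 6.14 to 110.8 ± 23.2 RPKM (log2 1.18, adjusted p = 0.00304). Prdm1, which encodes BLIMP-1, the antagonist of BCL6, rose from 6.80 ± 0.697 to 12.2 ± 1.28 RPKM (log2 0.80, adjusted p = 0.0212). That call ended without WT replicate 1 or 3 or miR-27 Tg replicate 1 or 2 (adjusted p 0.0502 to 0.0717). In cluster Tg, Prdm1 was at 11.3 ± 3.37 RPKM (adjusted p = 0.0572) and in DKO at 10.58 ± 2.599 RPKM (adjusted p = 1).

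In cluster Tg, 2 of the 14 rose and 5 fell, beside 13.8% and 10.5%, with a median of -0.13 beside 0.016. The rises were Id2 (log2 1.498, adjusted p = 0.000836) and Gpr183 (log2 0.58, adjusted p = 0.00664). The falls were led by Ccr7 (log2 -0.98, adjusted p = 0.000164), Foxp1 (log2 -0.52, adjusted p = 0.00158), Foxo1 (log2 -0.39, adjusted p = 0.00881) and Klf2, a factor of T cell egress (log2 -0.78, adjusted p = 0.0304). The Klf2 call ended without WT replicate 1 or 2 or cluster Tg replicate 1 or 3 (adjusted p 0.0703 to 0.109).

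In miR-24 Tg, 3 rose and 3 fell, beside 4.60% and 4.38%, with a median of -0.27 beside 0.011. Stat5a, a factor downstream of IL-2, fell (47.6 ± 3.11 to 33.1 ± 3.33 RPKM, log2 -0.52, adjusted p = 0.00644) and its call did not end on leaving out any library. The other 5, Gpr183 (log2 0.61), Prdm1 (log2 0.86), Id2 (log2 0.88), Foxo1 (log2 -0.42) and Ccr7 (log2 -0.43), each lost its call without WT replicate 1, among others (adjusted p 0.0538 to 0.193). When miR-27 Tg was compared with miR-23 Tg, 1 rose and 3 fell, beside 12.4% and 10.9%. Gpr183 rose (log2 0.82, adjusted p = 0.000814), Ccr7 (log2 -0.90, adjusted p = 0.000308) and Foxp1 (log2 -0.62, adjusted p = 0.000562) fell, and Klf2 (log2 -0.73, adjusted p = 0.0418) fell with a call that ended without any of the 6 libraries. In cluster Tg against miR-27 Tg none passed with limma (2 had an unadjusted p under 0.05), and likewise in miR-23 Tg (6) and DKO (1) against WT.

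Other SLAM receptors flank Slamf6 or share its adaptors. Of 17 listed SLAM receptors and adaptors 14 were tested. In cluster Tg 3 rose and 3 fell, beside 13.8% and 10.5% of all tested genes, with a median log2 difference of -0.005 beside 0.016. Counts this close to the share over all genes say nothing about the list. Slamf1, a self-binding receptor of the same locus, rose there from 39.97 ± 4.77 to 55.3 ± 4.20 RPKM (log2 0.47, adjusted p = 0.0125), and was at 38.8 ± 7.26 RPKM in miR-27 Tg (log2 -0.05, adjusted p = 0.782). In cluster Tg against miR-27 Tg Slamf1 was the 1 gene of the list that rose (log2 0.52, adjusted p = 0.0227) and none fell. The call against WT ended without WT replicate 1 or cluster Tg replicate 1 (adjusted p 0.0557 to 0.0564). The call against miR-27 Tg ended without cluster Tg replicate 1 or 2 or miR-27 Tg replicate 2 or 3 (adjusted p 0.0634 to 0.0827).

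Ly9, a self-binding receptor, was at 95.4 ± 2.82 RPKM in WT and 95.9 ± 1.74 in cluster Tg (log2 0.01, adjusted p = 0.959). Cd84, another, was at 43.8 ± 2.45 and 53.89 ± 5.202 RPKM (log2 0.29, adjusted p = 0.148). Csk, a kinase that inhibits the Src family kinases, fell in cluster Tg from 219.7 ± 2.01 to 169.5 ± 10.6 RPKM (log2 -0.38, adjusted p = 0.00219) and in miR-24 Tg to 171.2 ± 11.03 RPKM (log2 -0.36, adjusted p = 0.00742). Lck, the Src family kinase of the T cell receptor, fell in miR-24 Tg (log2 -0.49, adjusted p = 0.00359) and in cluster Tg (log2 -0.32, adjusted p = 0.0168). The cluster Tg call of Lck ended without WT replicate 1 or 3 or cluster Tg replicate 1 (adjusted p 0.0578 to 0.0831). In miR-24 Tg these 2 of the 14 fell, beside 4.38%, and none rose, beside 4.60%.

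In miR-27 Tg 3 of the 14 rose and 1 fell, beside 15.9% and 12.7%, with a median of -0.06 beside 0.005. Ptpn11, the phosphatase SHP-2, rose from 29.8 ± 1.22 to 42.6 ± 3.08 RPKM (log2 0.51, adjusted p = 0.00204). Slamf8, a receptor of myeloid cells, rose from 0.105 ± 0.0317 to 1.40 ± 0.796 RPKM (log2 1.56, adjusted p = 0.00549), and Cd244, a receptor for CD48, from 0.274 ± 0.1101 to 0.996 ± 0.349 RPKM (log2 0.93, adjusted p = 0.0243, or 0.0938 without WT replicate 1). Cd48 fell (log2 -0.27, adjusted p = 0.0246), a call that ended without WT replicate 1 or 3 or miR-27 Tg replicate 1 or 3 (adjusted p 0.0640 to 0.0961). In cluster Tg the other calls, Ptpn11 (log2 0.36), Slamf8 (log2 1.07) and Sh2d2a, an adaptor related to SAP (log2 -0.36), each ended without WT replicate 1 or cluster Tg replicate 1, among others (adjusted p 0.0517 to 0.208). Against miR-23 Tg, miR-27 Tg had Slamf8 higher and Fyn and Csk lower, and all of these calls ended without miR-23 Tg replicate 2, among others (adjusted p 0.0527 to 0.163). In miR-23 Tg and DKO against WT none passed with limma (2 and 0 had an unadjusted p under 0.05).

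IL-21 signals through IL-21R and the JAK and STAT proteins, listed as 11 genes that were all tested. In miR-27 Tg none rose and 2 fell, beside 15.9% and 12.7% of all tested genes, with a median of -0.22 beside 0.005. These counts lie near the share over all genes, and nothing is read from them about the pathway. From the lowest mean up, Il21r was at 110.8 ± 3.98 RPKM in miR-27 Tg, 113.5 ± 8.66 in cluster Tg, 127.5 ± 15.9 in miR-24 Tg, 132.1 ± 10.6 in DKO, 137.3 ± 16.6 in WT and 138.4 ± 9.23 in miR-23 Tg (n = 3 each). Its fall in miR-27 Tg (log2 -0.30, adjusted p = 0.0465) held only without WT replicate 3, and without any other library of the 2 groups the adjusted p was 0.0549 to 0.172. Jak1, a kinase bound to IL-21R, fell in miR-27 Tg from 184.0 ± 10.4 to 146.0 ± 8.95 RPKM (log2 -0.33, adjusted p = 0.00557).

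In cluster Tg, 1 gene of the pathway rose and 1 fell, beside 13.8% and 10.5%. The fall was of Jak1 (log2 -0.24, adjusted p = 0.0363), a call that ended without any library but WT replicate 1 (adjusted p 0.0679 to 0.122). In miR-24 Tg none rose and Stat5a fell, beside 4.60% and 4.38%. In miR-27 Tg against miR-23 Tg none rose and 3 fell, beside 12.4% and 10.9%: Socs3, an inhibitor of cytokine receptors (112.1 ± 5.14 to 71.9 ± 5.72 RPKM, log2 -0.64, adjusted p = 0.0112), and Jak1 and Il21r, whose calls ended without miR-23 Tg replicate 1 or 2 or miR-27 Tg replicate 2 or 3 (adjusted p 0.0521 to 0.137). In miR-23 Tg, DKO and cluster Tg against miR-27 Tg none passed with limma (1, 1 and 2 had an unadjusted p under 0.05).

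Transcription factors known to act on Il21 were tested as a list of 14, of which 13 passed the filter and several are also in the follicular list. In miR-27 Tg, 6 rose and 1 fell, beside 15.9% and 12.7% of all tested genes, with a median of 0.33 beside 0.005. The rises included Maf, Irf4, Batf (log2 0.78, adjusted p = 0.000562), Tbx21, which encodes T-BET (2.91 ± 0.0469 to 10.5 ± 4.35 RPKM, log2 1.62, adjusted p = 0.000646) and Nfatc1 (log2 0.56, adjusted p = 0.0229). The Nfatc1 call ended without any library but miR-27 Tg replicate 3 (adjusted p 0.0530 to 0.0635). Jun, an AP-1 subunit, fell (272.1 ± 92.1 to 88.6 ± 58.7 RPKM, log2 -1.79, adjusted p = 0.0285). The Jun call ended without WT replicate 1 or 2 or miR-27 Tg replicate 2 or 3 (adjusted p 0.0636 to 0.141), and with the B cell marker level as a covariate the difference was 0.06.

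In cluster Tg, Batf, Maf and Tbx21 (log2 1.32, adjusted p = 0.00297) rose and none fell, so that 3 and 0 of the 13 were called, beside 13.8% and 10.5%. In miR-24 Tg, 3 rose, Maf and Tbx21 (log2 0.97, adjusted p = 0.0371, ended without any of the 6 libraries) among them, and none fell, beside 4.60% and 4.38%. In miR-27 Tg against miR-23 Tg, 4 rose and 2 fell, beside 12.4% and 10.9%. Maf, Irf4 and Batf were among the rises, and the falls were Jun (log2 -1.83, adjusted p = 0.0302) and Junb (log2 -1.49, adjusted p = 0.0383). The calls of Jun and Junb ended without any library but miR-27 Tg replicate 1 (adjusted p 0.0675 to 0.155). In cluster Tg against miR-27 Tg none rose, and Irf4 and Maf were lower, beside 3.50% and 3.35%. In miR-23 Tg, where Il21 was 3.48-fold of WT, none passed with limma (2 had an unadjusted p under 0.05). In DKO, where Il21 was 2.204-fold of WT, none passed either (3 had an unadjusted p under 0.05), and Maf was at 64.2 ± 10.6 RPKM against 45.7 ± 2.01 (log2 0.47, adjusted p = 1).

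Among relatives and receptors of ANGPTL2, 5 of 11 listed genes were tested. Of these, 2 rose in miR-27 Tg (beside 15.9% of all tested genes), 3 in cluster Tg (beside 13.8%) and 2 in miR-24 Tg (beside 4.60%). Itgb1, the integrin beta-1 chain, rose from 62.3 ± 10.4 RPKM in WT to 162.7 ± 34.5 in miR-27 Tg (log2 1.37, adjusted p = 9.75e-05), 224.3 ± 46.5 in cluster Tg (log2 1.83, adjusted p = 1.48e-05) and 138.0 ± 19.8 in miR-24 Tg (log2 1.14, adjusted p = 0.00107). The rise of Itgb1 thus included miR-24 Tg, where Angptl2 overlapped WT. Angptl4, another secreted member of the family, rose in cluster Tg (1.94 ± 0.171 to 3.40 ± 0.0949 RPKM, log2 0.68, adjusted p = 0.00502). In miR-27 Tg against miR-23 Tg, Itgb1 (log2 1.12, adjusted p = 0.000441) and Itga5, an integrin alpha chain that pairs with it (2.51 ± 0.321 to 4.25 ± 0.629 RPKM, log2 0.65, adjusted p = 0.00493), rose.

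Lilrb4, an inhibitory immunoglobulin-like receptor best known from myeloid cells, rose in miR-24 Tg (4.24 ± 1.80 to 16.7 ± 2.85 RPKM, log2 1.94, adjusted p = 0.00701), in miR-27 Tg (log2 1.39, adjusted p = 0.0150) and in cluster Tg (log2 1.35, adjusted p = 0.0207). The miR-27 Tg call ended without WT replicate 3 or miR-27 Tg replicate 1 (adjusted p 0.0619 to 0.0729), and the cluster Tg call without WT replicate 3 or cluster Tg replicate 1 (adjusted p 0.0933 to 0.115). None of the 5 fell in any comparison. None rose in miR-23 Tg, DKO or cluster Tg against miR-27 Tg with limma (1, 0 and 2 had an unadjusted p under 0.05).

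Of 17 genes next to the members on the chromosome 11 were tested. In miR-27 Tg 1 rose and none fell, beside 15.9% and 12.7% of all tested genes. In cluster Tg 2 rose and 2 fell, beside 13.8% and 10.5%, and nothing is read from counts so near those shares. The rise in miR-27 Tg was of Xiap, an inhibitor of caspases near Sh2d1a (24.9 ± 2.06 to 33.5 ± 1.69 RPKM, log2 0.43, adjusted p = 0.00181). In miR-23 Tg only Zbtb34, beside Angptl2, passed (log2 -0.51, adjusted p = 0.0493), a call that ended without any of the 6 libraries (adjusted p 0.0966 to 0.220). In cluster Tg, Slamf1 and Stag2, a cohesin subunit near Sh2d1a (log2 0.32, adjusted p = 0.0211), rose, and Zbtb34 (log2 -0.33, adjusted p = 0.0286) and Ralgps1 fell. The Stag2 and Zbtb34 calls ended without cluster Tg replicate 1, among others (adjusted p 0.0590 to 0.146). Zbtb34 was 0.73 higher in miR-27 Tg than in miR-23 Tg (adjusted p = 0.000249) and 0.55 lower in cluster Tg than in miR-27 Tg (log2 -0.55, adjusted p = 0.00713).

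Of the other neighbours, Xiap (log2 0.62, adjusted p = 0.000176) and Stag2 (log2 0.28, adjusted p = 0.0397) were higher and Oser1 (log2 -0.62, adjusted p = 0.0417), near Tox2, was lower in miR-27 Tg than in miR-23 Tg. The calls of Stag2 and Oser1 ended without any of the 6 libraries (adjusted p 0.0551 to 0.121). In miR-24 Tg and DKO no neighbour passed with limma (2 and 0 had an unadjusted p under 0.05). Il2, the T cell growth factor that neighbours Il21, was at 0.997 ± 0.469 RPKM in WT, 2.38 ± 1.62 in cluster Tg (adjusted p = 0.119) and 1.93 ± 0.498 in DKO (adjusted p = 1).

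The genes whose log2 levels over the 18 libraries were most like each member, out of 10139 candidates, are given by Pearson r as a description, since these libraries share genotypes. For Il21 they were Egln3 (r = 0.901), an oxygen-sensing prolyl hydroxylase, Ptpn11 (0.860) and Atf5 (0.852). For Angptl2 they were Car5b (0.973), a mitochondrial carbonic anhydrase, Ifitm2 (0.970), an interferon-induced membrane protein, and Ebi3 (0.957), a subunit of the Treg cytokine IL-35. The mean of Ebi3 was 17.4 RPKM in WT, 42.7 in cluster Tg and 47.1 in miR-27 Tg. For Slamf6 they were Gpm6b (0.940), Smpdl3b (0.912) and Slc35b1 (0.893). For Sh2d1a they were Sec11c (0.931), a signal peptidase subunit, Glod4 (0.909) and Tnfsf14 (0.904), the cytokine LIGHT. For Tox2 they were Nfatc1 (0.873), Ptpn11 (0.868) and Mfn2 (0.864). Ptpn11 was the only gene named for more than 1 member.

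The cells carried the markers of Treg cells in each library, with Foxp3 from 196.6 to 347.6 RPKM and Il2ra from 155.0 to 255.1 RPKM. Foxp3 and Il2ra were lowest on average in miR-23 Tg. The Foxp3 libraries there were at 243.0, 215.3 and 248.6 RPKM, each below the lowest WT library (286.6), with a log2 difference of -0.43 (adjusted p = 0.255). Il2ra, which encodes CD25, was at 163.0, 155.0 and 182.9 RPKM there, each below the lowest WT library (203.2), with a log2 difference of -0.41 (adjusted p = 0.257). None of the 8 Treg markers passed in miR-23 Tg with limma, 5 had an unadjusted p under 0.05 (Foxp3, Il2ra, Ikzf2, Ikzf4 and Tnfrsf18), and their median was -0.33 beside 0.008. Il21 was 3.48-fold of WT in the same libraries, and the part of these Treg marker levels in it was not tested. Foxp3 did not pass in miR-27 Tg (271.3 ± 67.5 against 318.8 ± 27.9 RPKM, log2 -0.26, adjusted p = 0.262) or cluster Tg (248.7 ± 38.7 RPKM, log2 -0.37, adjusted p = 0.122), although each cluster Tg library (206.6 to 282.8 RPKM) was below WT. Library depth, read from the spacing of low values, was 20.4 to 31.6 megareads, and 10710 to 11121 genes reached 1 RPKM. In bulk samples a change in the share of cells that express a gene and a change in its RNA per cell cannot be told apart.

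Markers of other cells moved with the genotypes. The summed RPKM of 13 B cell markers was 102.4 to 149.7 in WT, 183.1 to 269.9 in miR-23 Tg, 173.7 to 576.1 in miR-24 Tg, 346.6 to 586.3 in miR-27 Tg, 190.1 to 314.1 in cluster Tg and 120.9 to 169.1 in DKO. None of the 13 was at 0 in any library. All 12 tested B cell markers rose in miR-27 Tg (7 without miR-27 Tg replicate 3), beside 15.9% of all tested genes. In miR-24 Tg 6 of 12 rose (1 or 2 without miR-24 Tg replicate 1 or any WT library), beside 4.60%. None passed in miR-23 Tg, cluster Tg or DKO.

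The sum of 14 myeloid markers was 27.95 to 34.2 RPKM in WT, 54.9 to 85.9 in miR-23 Tg, 39.2 to 226.3 in miR-24 Tg, 59.8 to 139.9 in miR-27 Tg, 45.4 to 58.7 in cluster Tg and 26.6 to 45.4 in DKO, with 5 of the 14 at 0 in some library. Each library of the 4 overexpressing genotypes was thus above WT. Of 10 tested myeloid markers 5 rose in miR-27 Tg (Mpeg1, Lyz2, Tyrobp, Csf1r and Cybb), beside 15.9% of all tested genes. That count was 1 to 3 without miR-27 Tg replicate 2 or 3 or any WT library, and 7 without miR-27 Tg replicate 1. In miR-24 Tg Lyz2 alone rose, beside 4.60%, or none without miR-24 Tg replicate 1 or any WT library and 2 or 3 without miR-24 Tg replicate 3 or 2. None passed with limma in miR-23 Tg, cluster Tg or DKO (4, 3 and 0 had an unadjusted p under 0.05).

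The sum of 6 plasma cell markers was 46.7 to 55.3 RPKM in WT, 60.6 to 80.9 in miR-23 Tg, 51.97 to 78.95 in miR-24 Tg, 66.9 to 162.3 in miR-27 Tg, 59.75 to 62.4 in cluster Tg and 49.1 to 61.5 in DKO. Xbp1 alone, at 45.6, 44.6 and 52.1 RPKM in WT replicates 1 to 3, made up most of the WT sums. Of 5 tested, Igj and Mzb1 rose in miR-27 Tg, beside 15.9% of all tested genes. Igj rose in miR-24 Tg, beside 4.60%, a call that held only without miR-24 Tg replicate 2. No plasma cell marker passed with limma in miR-23 Tg, cluster Tg or DKO (3, 1 and 0 had an unadjusted p under 0.05). Those in miR-23 Tg were Derl3, Igj and Mzb1, all higher. Igj was at 18.2, 19.4 and 8.17 RPKM there and at 0.846, 0.290 and 0.227 in WT. The sum of 7 CD8 and NK cell markers was 20.4 to 21.9 RPKM in WT, 18.9 to 25.6 in miR-23 Tg, 25.0 to 27.8 in miR-24 Tg, 23.2 to 46.1 in miR-27 Tg, 22.2 to 30.7 in cluster Tg and 18.6 to 23.8 in DKO. Of 6 tested, Ncr1, Klrk1 and Cd8a rose in miR-27 Tg, beside 15.9% of all tested genes. That count was 1 without miR-27 Tg replicate 3 or WT replicate 2, and 2 without miR-27 Tg replicate 1 or WT replicate 1 or 3.

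Il21 is set here beside the B cell sum of the same library, replicates 1 to 3. In miR-27 Tg the sums of 346.6, 379.3 and 586.3 RPKM stood beside 8.30, 8.12 and 12.97 RPKM of Il21. In cluster Tg sums of 314.1, 241.9 and 190.1 stood beside 14.1, 9.78 and 5.42 RPKM. In miR-23 Tg sums of 269.9, 264.6 and 183.1 stood beside 10.02, 10.22 and 6.105 RPKM. In WT sums of 149.7, 147.8 and 102.4 stood beside 2.57, 2.68 and 1.32 RPKM. The library with the highest sum thus had the highest Il21 in miR-27 Tg and cluster Tg, and the library with the lowest sum had the lowest Il21 in cluster Tg, miR-23 Tg and WT. In miR-24 Tg sums of 576.1, 279.4 and 173.7 stood beside 2.54, 5.48 and 4.77 RPKM, and in DKO sums of 120.9, 168.3 and 169.1 beside 5.09, 6.47 and 4.38 RPKM, where neither held. The part of B cells in the Il21 values was not tested beyond a fit with their marker level as a covariate. With that covariate, the miR-27 Tg difference from WT was 2.19 for Il21, 1.93 for Angptl2, 0.70 for Slamf6, 0.32 for Sh2d1a and 1.35 for Tox2. These member values are given for miR-27 Tg only. Every miR-27 Tg sum was above every WT sum, so the fit cannot fully separate the marker level from genotype. For the follicular list, the same covariate left 9 of the 15 rises and 0 of the 2 falls in miR-27 Tg. Over all 11520 tested genes, 309 were called higher and 180 lower there with it, against 1830 and 1464 without it. Maf, Il1rn, Irf4, Icos, Gpm6b, Il1r2, Batf, Pdcd1 and Tnfsf8 kept their calls, while those of Lef1 (adjusted p = 0.0933), Il6st (0.284), Foxp1 (0.0605), Id2 (0.0933), Ptpn11 (0.0949), Jak1 (0.357) and Tbx21 (0.142) ended. In miR-24 Tg the covariate left 3 rises (Gpm6b, Icos and Pdcd1) and 0 falls, with Maf at an adjusted p of 0.0527 and Tcf7 at 0.119. Over all tested genes, 156 were called higher and 165 lower there with it, against 530 and 504 without it. In cluster Tg against miR-27 Tg only the Irf4 call of the list was left, beside 15 higher and 22 lower over all genes (403 and 386 without the covariate). Pou2af1, a coactivator also made by B cells, is among the listed rises (miR-27 Tg log2 1.45, adjusted p = 0.00326).

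Activated conventional CD4 T cells, which make IL-21 and can carry CD25, were followed by 8 markers, of which Il4 and Cd40lg are also in the follicular list. Their sum was 48.2 to 54.5 RPKM in WT, 72.8 to 84.2 in miR-23 Tg, 69.9 to 133.6 in miR-24 Tg, 78.1 to 107.5 in miR-27 Tg, 82.4 to 159.0 in cluster Tg and 50.3 to 68.2 in DKO. Of 7 tested markers, Il4, Tnf and Cd40lg rose in both miR-27 Tg and cluster Tg, beside 15.9% and 13.8% of all tested genes. None passed against WT for the other genotypes. In replicates 1 to 3, cluster Tg sums of 159.0, 115.5 and 82.4 RPKM stood beside 14.1, 9.78 and 5.42 RPKM of Il21. In miR-23 Tg sums of 75.0, 84.2 and 72.8 stood beside 10.02, 10.22 and 6.11. In miR-24 Tg sums of 69.9, 133.6 and 75.6 stood beside 2.54, 5.48 and 4.77. In miR-27 Tg sums of 91.7, 78.1 and 107.5 stood beside 8.30, 8.12 and 12.97. The order of the sums was that of Il21 in each of these genotypes. It was reversed in WT (54.25, 48.2 and 54.5 beside 2.57, 2.68 and 1.32). In DKO (50.3, 68.2 and 54.0 beside 5.09, 6.47 and 4.38) only the highest library was the same. Tnf, Cd40lg and Ifng made up most of each sum, and single markers did not all follow the order of Il21. In replicates 1 to 3, Tnf was at 23.3, 26.7 and 27.2 RPKM in miR-23 Tg, and Il2 at 4.20, 1.10 and 1.82 in cluster Tg. The part of conventional cells in the Il21 values was not tested.

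**Figure D4:**
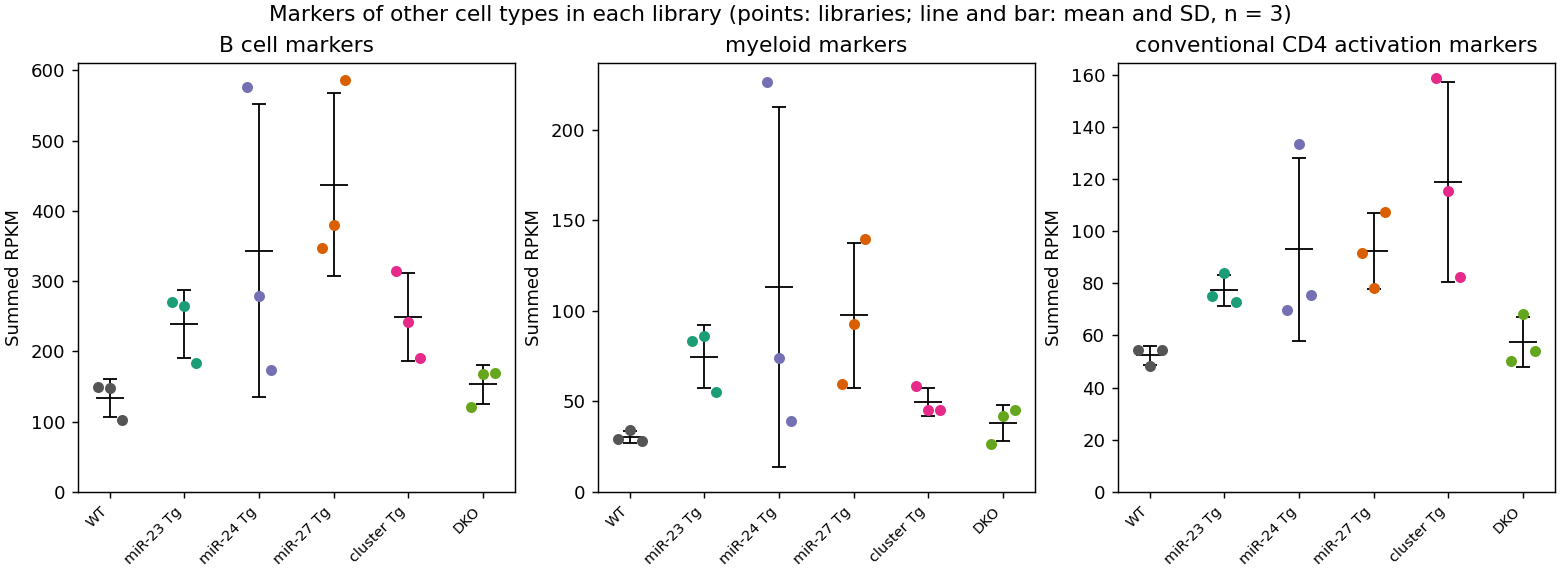
Summed RPKM (y axis, from 0) of B cell, myeloid and conventional CD4 activation markers in each library, by genotype (x axis); points are libraries and the line with bar is the mean with SD, n = 3. The B cell sum is highest in miR-27 Tg replicate 3 (586.3) and miR-24 Tg replicate 1 (576.1), and the activation sum in cluster Tg replicate 1 (159.0).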

How the data were processed

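RNA from sorted Treg cells was sequenced on an Illumina HiSeq instrument after total RNA extraction with small RNAs kept and TruSeq RNA library preparation, per the labels' protocols. The authors deposited RPKM values in 1 table of 23953 entries and 18 libraries. The submitters' processing notes name STAR 2.2.0c, HOMER and mm10 (GRCm38). The step and annotation that made the RPKM values, and the strand setting, are not given in the sources used here. Entries with a repeated symbol (4) were left out.

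Genes reaching 1 RPKM in 3 or more libraries (11520 genes) were fitted on log2(RPKM + 0.5) in 1 limma model (limma 3.58.1, R 4.3.3, mean-variance trend) over the 18 libraries. A gene was called at a two-sided Benjamini-Hochberg adjusted p under 0.05 over all tested genes of a comparison. The method was tested on simulated data. Tables and figures used Python 3.11.15, pandas 2.3.3 and matplotlib 3.10.9. RPKM are not counts, so depth was inferred from the spacing of low values in 3310 genes with 1 transcript.

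The 5 members and all gene lists were chosen with earlier results of these data known. Members are described without tests. From each list, the text names called genes (up to 4 per direction, by smallest p) and a fixed panel (Bcl6, Cxcr5, Pdcd1, Icos, Maf, Ascl2, Tox, Prdm1, Il21r, Slamf1, Ly9, Cd84, Ralgps1, Il2, Foxp3), with the 3 genes most like each member. Alternatives were a block for the replicate number, a covariate for B cell markers, fits restricted to the compared groups, pseudocounts of 0.1 and 1, scaling by median ratios, no filter, and leaving out libraries. Protein sequences were not used here. A few genes of the lists are counted but not reported here by name.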

Additional observations from a re-analysis of the deposited data

How the results depend on the processing

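Of 490 alternative values of the members' differences, 477 moved by less than 1 SD between replicates and 13 by more, of which 9 were Slamf6 without WT replicate 3 or with the B cell covariate. Small differences changed sign when a library was left out, such as Angptl2 in miR-24 Tg (-0.06 to 0.13), Slamf6 in DKO (-0.02 to 0.19) and Il21 in cluster Tg against miR-27 Tg (-0.37 to 0.28). Of 2581 alternative values of other named genes, 2265 kept direction and call, 294 lost the call, 21 gained it and 1 reversed (Jun, miR-27 Tg against WT, 0.058 with the B cell covariate).

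Counts of the follicular list moved as follows. With the B cell level as a covariate, miR-27 Tg had 9 rises and 0 falls, miR-24 Tg had 3 and 0, and cluster Tg against miR-27 Tg had 0 rises and 1 fall. Over all tested genes the covariate fit called 309 higher and 180 lower in miR-27 Tg and 156 and 165 in miR-24 Tg. For cluster Tg against miR-27 Tg it called 15 and 22. With only the 2 compared groups in the fit, miR-23 Tg had 1 rise, cluster Tg 0 falls, miR-27 Tg against miR-23 Tg 2 falls, and cluster Tg against miR-27 Tg 0 rises and 0 falls. Over all genes of those fits, calls higher and lower were 183 and 60 in miR-23 Tg and 1178 and 701 in cluster Tg. They were 1149 and 1031 in miR-27 Tg against miR-23 Tg, and 5 and 4 in cluster Tg against miR-27 Tg. Without miR-24 Tg replicate 1 and miR-27 Tg replicate 3, miR-23 Tg had 1 rise, miR-27 Tg 1 fall and cluster Tg against miR-27 Tg 3 falls. Over all genes that setting had 29 rises in miR-23 Tg, 988 falls in miR-27 Tg and 152 falls in cluster Tg against miR-27 Tg. With the replicate block, miR-27 Tg had 15 rises and 2 falls, cluster Tg 13 and 3, and miR-27 Tg against miR-23 Tg 13 rises, and no count of the list moved by over 1.5 times. The numbers were not taken as pairs, and whether they pair libraries is not stated in the sources used here. Over 45 same-numbered pairs the correlation of deviations had a median of 0.004 (-0.167 to 0.188, 6 over 0.1). For 90 differently numbered pairs it was 0.000 (-0.217 to 0.189, 7 over 0.1). Of 18 libraries 9 correlated best with their own number. The block raised the calls over all genes in each comparison but DKO, as in miR-23 Tg (38 higher and 38 lower, against 18 and 23). In DKO they were 1 and 0, against 2 and 0.

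Leaving out each library gave 4 to 5 rises in miR-24 Tg, 12 to 14 rises and 1 to 2 falls in miR-27 Tg, 10 to 15 rises and 1 to 3 falls in cluster Tg (1 fall without cluster Tg replicate 1), 10 to 11 rises and 0 to 1 falls in miR-27 Tg against miR-23 Tg, and 0 to 2 rises and 3 to 4 falls in cluster Tg against miR-27 Tg. The cause of these changes was not tested.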
